A study of Mus musculus with 2 samples.

Results

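The genes described here encode the signalling chains of the T-cell antigen receptor and proteins that T-lineage cells use beside it: Cd3d, Cd3e, Cd3g, Cd247, Lat, Cd2, Cd5, Zap70 and Bcl11b. They were found as the gene probes that carry one of these names on the array, which gave 14 of 41174 probes and 9 of 19754 named genes. RNA came from granulocytes and from monocytes of wild type male C57BL/6 mice, each sorted out of bone marrow, and 1 one-colour Agilent array was hybridised per cell type. Both groups thus share genotype, sex and strain, while the surface markers of the sort, and how old and how many the mice were, could not be taken from the sources used here. No difference below has a replicate check, and no test was made. The 2 arrays limit the precision of every value.

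T cells recognise antigen through a receptor of paired alpha and beta or gamma and delta chains, which have almost no cytoplasmic part of their own. The CD3 gamma, delta and epsilon chains and the zeta chain carry the signal inward through a tyrosine-based activation motif known as the ITAM, which Src family kinases phosphorylate and to which the kinase Zap70 then binds. Granulocytes and monocytes are myeloid cells that do not rearrange antigen receptor genes, and they signal through ITAM adaptors of their own. Bone marrow also holds mature T cells and natural killer (NK) cells, and Cd247, Zap70 and Cd2 are used by NK cells too.

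The probes are 60 bases long, and each reads only the stretch of transcript that it matches. The sequences of 7 of them are shown, written 5′ to 3′ as in the files, because a value below is that of a probe's stretch and because the Cd3d probe and 1 Cd247 probe hold the codons of an ITAM. The Cd247 probe shown is the one with that motif and not the one that represents the gene. The Cd3e and Cd5 probes are not shown. Capitals mark a run in which 2 in-frame tyrosine codons are each followed, after 2 further codons, by a leucine or isoleucine codon. The 2 tyrosine codons also had to be spaced as in an ITAM, in a frame with no stop codon across the probe.
Cd3g A_51_P260889: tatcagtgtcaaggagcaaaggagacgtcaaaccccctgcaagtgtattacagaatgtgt
Cd3d A_51_P285206: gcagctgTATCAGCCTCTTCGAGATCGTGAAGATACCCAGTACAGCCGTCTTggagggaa
Cd247 A_52_P173555: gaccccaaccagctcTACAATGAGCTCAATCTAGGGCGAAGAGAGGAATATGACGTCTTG
Zap70 A_51_P327141: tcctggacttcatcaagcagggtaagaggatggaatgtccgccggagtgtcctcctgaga
Lat A_51_P495242: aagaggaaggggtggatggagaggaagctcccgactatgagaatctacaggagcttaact
Cd2 A_51_P126067: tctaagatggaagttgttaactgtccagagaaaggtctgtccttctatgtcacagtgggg
Bcl11b A_51_P171772: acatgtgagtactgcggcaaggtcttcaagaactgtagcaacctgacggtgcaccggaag
Of all 41174 gene probes, 32 (0.0777%) held such a run. It is a match of letters in 1 reading frame and says nothing of the levels.

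The check of the labels by markers came out with the named cell type on its own side. Of 7 granulocyte markers 5 were at least 4-fold higher on the granulocyte array, among them Cxcr2 (8.38), Mmp8 (5.49) and Csf3r (3.45). Of 7 monocyte markers 6 were at least 4-fold lower there, among them Ccr2 (-7.67) and F13a1 (-7.46), and Csf1r differed by -1.56. Differences are log2 levels of granulocytes minus those of monocytes, where a level is the processed signal relative to the 75th percentile of its array. That percentile was 339.4 in granulocytes against 620.9 in monocytes, so scaling adds 0.87 to every difference measured on both arrays, while a bound can move by less. Signal was well above background for 26256 probes (63.9%) in granulocytes against 28032 probes (68.2%) in monocytes.

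Of the 9 genes, 7 were lower in granulocytes than in monocytes, as were 38% of all genes, and Cd3d and Cd3e were higher. At least 4-fold differences were found for 3 genes, Cd3g, Cd247 and Bcl11b, each lower on the granulocyte array. Cd247 and Bcl11b were above background on the monocyte array only, so their differences are bounds and could not come out higher in granulocytes. Signal was above background on both arrays for 7 of the 9. Among these 7, 1 gene, Cd3g, was at least 4-fold lower, as were 1377 of all 14182 such genes. Of the 15609 genes in all with signal above background, 10.4% were that much lower and 8.54% that much higher in granulocytes. With a rule of 2-fold, 7 of the 9 genes were lower and 1, Cd3d, was higher, against 20.9% and 29.1% of all genes. The median of the 9 differences was -1.71, and that of all genes was 0.41. These counts describe 9 chosen genes on 2 arrays. Without scaling the split over all genes moved, with 581 genes (3.72%) higher and 3011 (19.3%) lower in granulocytes by 4-fold or more, against 1333 and 1622 with it.

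**Figure D1:**
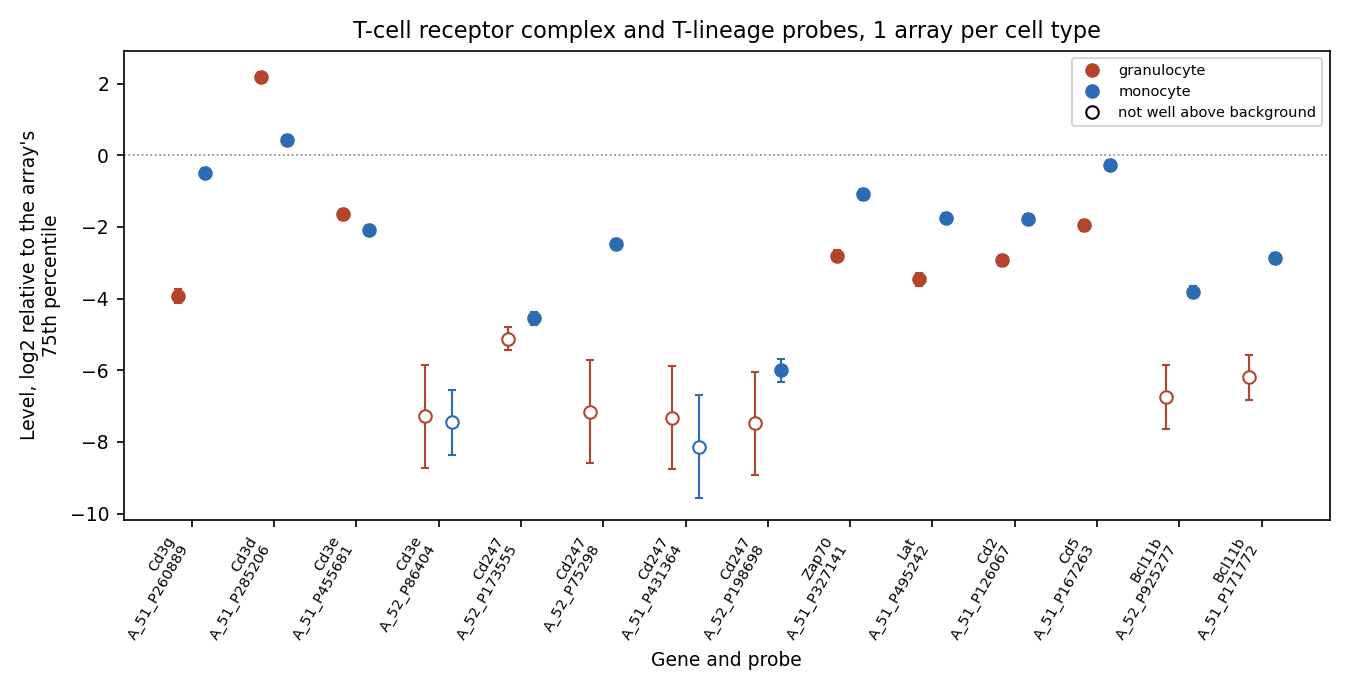
Level of each of the 14 probes on the granulocyte array (red) and the monocyte array (blue), as log2 relative to the 75th percentile of the array. Bars are the scanner software's error for the spot and open points are probes not well above background. Cd3d stands at 2.18 in granulocytes against 0.42 in monocytes, while Cd3g stands at -3.94 in granulocytes against -0.50 in monocytes.

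Cd3g encodes the gamma chain of CD3. Its probe, at mm8 chr9:44724628-44725212 on the minus strand, gave a processed signal of 22.1 ± 3.01 in granulocytes and 439.9 ± 44.0 in monocytes, where ± is the error that the scanner software assigns to a spot. The monocyte spot was thus 19.9 times as bright before scaling. After scaling the difference was -3.44 ± 0.24, or 10.9-fold lower in granulocytes, the largest among the 7 genes with signal well above background on both arrays. The error covers the spot alone and not the spread between samples. In the unprocessed scan the mean of the granulocyte spot was 45.8 over a local background of 27.5, and that of the monocyte spot was 485.8 over 22.0. The probe covers 585 bases of genome, more than its 60 bases, so its match is not 1 continuous stretch of the genome.

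Cd3d, the gene of the CD3 delta chain, lies next to Cd3g and is read in the opposite direction. At mm8 chr9:44737083-44737314 on the plus strand, its probe gave 1533 ± 153 in granulocytes and 829.9 ± 83.0 in monocytes. The difference was 1.76 ± 0.20, or 3.38-fold higher in granulocytes. The granulocyte spot was the brighter of the pair before scaling too, with a difference of 0.89. Cd3g and Cd3d are thus neighbours whose probes differed in opposite directions, and both stayed on their side under each of the scalings and backgrounds tried.

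Cd3e encodes the epsilon chain, which pairs with each of the other CD3 chains. The probe that represents it, at mm8 chr9:44750166-44750225 on the minus strand, gave 108.2 ± 11.0 in granulocytes and 145.8 ± 14.7 in monocytes, a difference of 0.44 ± 0.21. This is close to the median of all genes, and its direction rests on the scaling: it was -0.43 with no scaling and -0.07 when spike-in controls set the scale. The other Cd3e probe, at mm8 chr9:44754896-44754955, was not well above background on either array (2.17 in granulocytes and 3.54 in monocytes). The Cd3e difference therefore has no settled direction on these arrays.

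Cd247 encodes the zeta chain, which carries several ITAMs. Its probe at mm8 chr1:167698399-167698458 on the plus strand gave 2.37 ± 2.36 on the granulocyte array, not well above background, and 111.0 ± 11.4 on the monocyte array. Taken against the dimmest signal well above background on the granulocyte array, the transcript was at least 6.41-fold lower in granulocytes (-2.68). Its other 3 probes gave smaller bounds or none. The probe with the ITAM run, at mm8 chr1:167693111-167694129, gave 9.78 on the granulocyte array, again not well above background, and 26.4 on the monocyte array, which is at least 1.48-fold lower in granulocytes. The probe at mm8 chr1:167713822-167713881 gave 1.90 in granulocytes and 9.69 in monocytes and was well above background on the monocyte array only, too close to the bound for a fold, and the one at mm8 chr1:167703840-167703899 was not well above background on either (2.12 in granulocytes and 2.20 in monocytes). The size of the Cd247 difference thus depended on the probe, and none of its probes was well above background on the granulocyte array.

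In the mouse assembly GRCm38.p6 the RefSeq starts of Cd3g and Cd3d lie 1355 bases apart and point away from each other. Their promoter windows, 250 bases before to 50 after the start, are shown because the probes of these neighbours differed in opposite directions. The first is chr9:44980382-44980681 on the minus strand and the second chr9:44981536-44981835 on the plus strand. Capitals mark the E-box letters CACCTG read on either strand, a sequence of the kind bound by E proteins such as the product of Tcf12.
Cd3g promoter: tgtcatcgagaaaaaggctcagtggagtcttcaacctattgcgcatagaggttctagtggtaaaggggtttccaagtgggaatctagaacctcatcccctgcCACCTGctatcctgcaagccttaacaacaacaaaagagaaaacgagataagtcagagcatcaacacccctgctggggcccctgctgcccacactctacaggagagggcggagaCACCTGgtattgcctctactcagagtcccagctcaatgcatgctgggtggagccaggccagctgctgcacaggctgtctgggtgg
Cd3d promoter: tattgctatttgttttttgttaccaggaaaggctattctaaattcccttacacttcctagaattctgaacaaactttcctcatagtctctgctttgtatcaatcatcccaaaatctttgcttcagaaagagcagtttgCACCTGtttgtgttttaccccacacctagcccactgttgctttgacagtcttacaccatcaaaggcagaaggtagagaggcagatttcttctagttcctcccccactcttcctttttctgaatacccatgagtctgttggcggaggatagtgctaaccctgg
The Cd3g window holds 2 matches and the Cd3d window 1. RefSeq gave windows for 8 of the 9 genes, 10 in all, and CACCTG was in 7 of these 10 and in 20.2% of 32851 mouse windows. The other letters searched on both strands were GGAA, the core bound by Ets factors (9 of 10 windows, 96% of all), TGTGGT, the core bound by Runx factors (2 of 10, 16.8%), and TATAAA (1 of 10, 13.6%). None of these strings contains another. A match is a description of letters in the window and not a bound site.

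Zap70 is the cytoplasmic kinase that binds phosphorylated ITAMs. Its probe, at mm8 chr1:36725911-36725970 on the plus strand, gave 48.6 ± 5.37 in granulocytes and 290.9 ± 29.2 in monocytes. The difference was -1.71 ± 0.22, or 3.27-fold lower in granulocytes. Lat is the membrane adaptor that Zap70 phosphorylates and on which phospholipase C gamma and Grb2 family adaptors assemble. The Lat probe, at mm8 chr7:126155353-126155412 on the minus strand, gave 30.7 ± 3.83 in granulocytes and 183.8 ± 18.5 in monocytes, and its difference was likewise -1.71, with an error of 0.23. The differences of Zap70 and Lat were thus closer to each other than the errors of their spots. This was not particular to the pair, since Cd5 (-1.67) was within those errors of both. With normexp Zap70 was at -0.86 and Lat at -0.63.

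Cd2 is an adhesion receptor whose ligand in the mouse is Cd48. Its probe, at mm8 chr3:101408940-101412119 on the minus strand, covers 3180 bases of genome and gave 44.5 ± 4.88 in granulocytes and 180.3 ± 18.1 in monocytes. At -1.15 ± 0.21, or 2.21-fold lower in granulocytes, it was the smallest of the differences below 0. Cd5 is a scavenger receptor-like surface protein that restrains antigen receptor signals in T cells. The Cd5 probe, at mm8 chr19:10785256-10785315 on the minus strand, gave 87.6 ± 9.02 in granulocytes and 510.5 ± 51.1 in monocytes, a difference of -1.67 ± 0.21 or 3.18-fold. Both surface receptors were dimmer on the granulocyte array and well above background on both arrays.

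Bcl11b is a zinc finger transcription factor that commits progenitors to the T lineage and keeps mature T cells in it. Its representing probe, at mm8 chr12:108363444-108363503 on the minus strand, gave 4.61 on the granulocyte array, not well above background, and 85.1 ± 8.74 on the monocyte array. Taken as for Cd247 against the dimmest signal well above background on the granulocyte array, the transcript was at least 4.91-fold lower in granulocytes (-2.30). The second probe, at mm8 chr12:108358529-108358588, gave 3.15 in granulocytes against 44.1 in monocytes, which is at least 2.55-fold lower in granulocytes. Both probes of Bcl11b, like 3 of the 4 of Cd247, were thus well above background on the monocyte array only, while the other 7 genes were well above it on both. Over all genes, 6.3% were above background on the monocyte array only and 2.84% on the granulocyte array only. In bulk samples such as these, fewer cells of a type and less RNA per cell cannot be told apart.

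**Figure D2:**
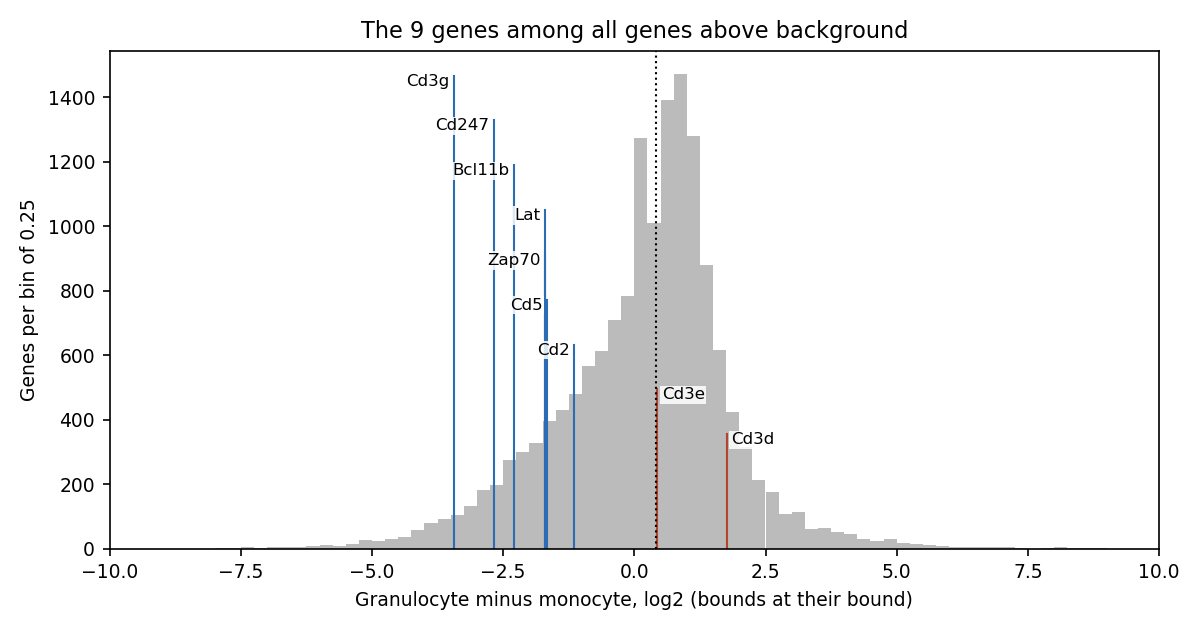
Granulocyte minus monocyte difference (log2) of the 15609 genes above background on at least 1 array, as the number of genes in bins of 0.25, with lines at the 9 genes; genes with a bound stand at the bound. The dotted line is the median of all genes, 0.41, and 7 of the 9 genes lie below 0 while Cd3e (0.44) and Cd3d (1.76) lie above it.

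The size of most differences depended on how dim signals were treated. With normexp background correction, which adds an offset of 50 to every intensity and so by its construction draws the differences of dim probes toward 0, no gene of the 9 reached 4-fold, where 5.59% of all genes were that much higher and 5.73% that much lower in granulocytes. The median of the 9 was then -0.60, against 0.47 for all genes. Under it Cd3g was at -1.98, Cd5 at -1.20, Zap70 at -0.86, Lat at -0.63 and Cd2 at -0.41, while Cd3d, at 1.58, and Cd3e, at 0.49, stayed within the error of their spots. The bounds of Cd247 and Bcl11b shrank to -0.60 and -0.36. With no scaling the median of the 9 was -2.58, against -0.42 for all genes. Then 7 of the 9 reached 4-fold, all lower in granulocytes, as were 19.3% of all genes. The median of the 9 lay below that of all genes under each scaling and background tried: the first minus the second was -2.11 with the 75th percentile, -1.85 with quantile normalisation and -1.08 with normexp.

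**Figure D3:**
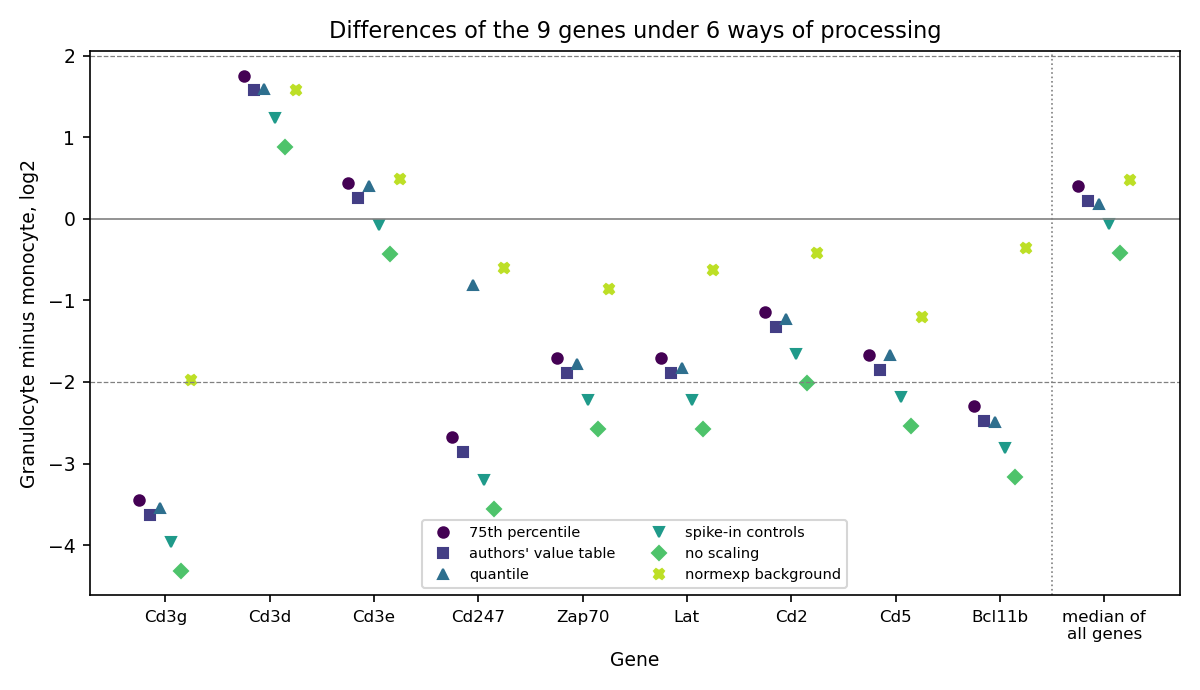
Granulocyte minus monocyte difference (log2) of each gene, and at the right the median of all genes, under 6 ways of scaling or background correction given by the markers. Dashed lines stand at 4-fold. Cd3d lies above 0 throughout (0.89 to 1.76), Cd3e crosses 0, and the normexp values of the others lie nearest to 0.

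For the antigen receptor chains, 33 probes whose descriptions in the file name such a chain were taken, a list drawn up after the files had been opened. Some of them stand for single V segments, and 1 carries the name of another gene, Brcc3. Of the 33, 12 were well above background in granulocytes against 22 in monocytes. Over all probes the shares were 63.9% in granulocytes and 68.2% in monocytes. In granulocytes none of the 22 was higher and 7 were lower by 4-fold or more, where among all probes 8.59% were that much higher and 9.11% that much lower. Probes above background on the monocyte array only could come out lower or at 0 but not higher. Of the 7, the 4 beta chain probes were measured on both arrays, while the 2 alpha and 1 gamma probes gave bounds. The median difference of the 22 was -0.32. Gene segments of a family are close copies of one another, so 1 transcript may light several of these probes.

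The largest measured differences were those of the beta chain. The probe for the beta constant segment TRBC1 gave 71.8 in granulocytes against 2084 in monocytes, a difference of -3.99. Probes named Tcrb-V13 whose target is a complete beta chain mRNA differed by a like amount. A_51_P478172 gave 46.1 in granulocytes against 1582 in monocytes (-4.23), and A_52_P102846 gave 104.3 in granulocytes against 2822 in monocytes (-3.89). A_51_P407832 gave 43.6 in granulocytes against 1139 in monocytes (-3.84). All 3 share 1 target sequence and are no independent measures of it. Other beta chain probes, also named Tcrb-V13, gave a bound of at least 1.42-fold lower in granulocytes (A_52_P184629) and a difference of 0.20 (A_52_P557517), so probes of the chain were not alike.

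The alpha chain was read from a complete mRNA by the Tcra probes A_51_P484329, with 3.21 in granulocytes against 176.7 in monocytes, and A_52_P112591, with 1.90 in granulocytes against 117.3 in monocytes. Both were not well above background on the granulocyte array, and the bounds were at least 10.2-fold and at least 6.77-fold lower in granulocytes. A gamma constant region probe (LOC624071, A_51_P429241) gave 7.08 in granulocytes, not well above background, and 223.1 in monocytes, at least 12.9-fold lower in granulocytes, while the other probe of that gene gave a bound of 1.09-fold. The probes of the alpha V segments that were well above background on both arrays differed little, from -0.53 to 0.72. The 1 delta probe above background (AK038197) gave 213.2 in granulocytes against 148.0 in monocytes (1.40), and the beta probe LOC621968, for an mRNA described as nonfunctional, was likewise higher in granulocytes (1.90).

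Genes around the receptor were taken as lists chosen with earlier results of these data known, 92 genes in all, of which 80 were above background on at least 1 array. In granulocytes 7 of the 80 (8.75%) were higher and 16 (20%) lower by 4-fold or more, against the 8.54% and 10.4% of all genes. Their median was 0.29, against 0.41 for all genes, and -0.46 with no scaling, against -0.42. With normexp both medians were 0.47. Among genes above background on both arrays theirs was 0.63, against 0.47 for all genes, so the order of the medians depended on the setting.

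The proximal signalling list holds the kinases, adaptors and effectors that carry the receptor's signal, and all 20 of its genes were above background. It had 1 gene (5%) at least 4-fold higher and 4 (20%) at least 4-fold lower in granulocytes, against 8.54% and 10.4% of all genes. The median was 0.66, or -0.21 with no scaling. With normexp 2 were at least 4-fold lower, against 5.73% of all genes. Skap1, an adaptor that links the receptor to integrin activation, gave 13.9 in granulocytes against 506.0 in monocytes (-4.31). Lck, the Src family kinase that phosphorylates the ITAMs, gave 28.2 in granulocytes against 816.0 in monocytes (-3.98). Fyn, a related kinase, was not well above background in granulocytes (8.27, against 237.7 in monocytes) and at least 13.7-fold lower there.

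The same list had genes on the other side. Nck1, an adaptor to the actin cytoskeleton, gave 5573 in granulocytes against 2011 in monocytes (2.34), and Fyb, the partner of Skap1, was higher in granulocytes as well (1.96). Plcg1, the phospholipase that Lat recruits, had probes at -1.83 and 1.46, and the transcription factor gene Nfatc2 had probes at -1.55 and 1.39, so neither has a settled direction. Skap1 and its partner Fyb thus lay on opposite sides.

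The 15 genes that restrain the receptor's signal were all above background, with a median of 0.68 (-0.20 with no scaling). In granulocytes 2 (13.3%) were at least 4-fold higher and 1 (6.67%) at least 4-fold lower, against 8.54% and 10.4% of all genes. With no scaling 1 was that much higher, against 3.72% of all genes. With normexp 1 was higher and 0 lower, against 5.59% and 5.73%. The membrane adaptor Pag1, which brings the inhibitory kinase Csk to the membrane, gave 10361 in granulocytes against 2518 in monocytes (2.91). Dok2, an adaptor that recruits negative regulators of Ras, was higher in granulocytes too (2.11). The ubiquitin ligase gene Cblb was at least 5.54-fold lower in granulocytes, while its relative Cbl was higher (1.47). Dgka, which removes diacylglycerol, gave 1.26 and the phosphatase gene Ptpn6 gave 0.94.

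Among coreceptors and costimulatory receptors, 16 of 19 genes on the array were above background, with a median of -1.26. In granulocytes 0 were at least 4-fold higher and 5 (31.25%) at least 4-fold lower, against 8.54% and 10.4% of all genes. With no scaling 9 were that much lower, against 19.3% of all genes, and the median was -2.13. With normexp 2 were that much lower, against 5.73% of all genes, and the median was -0.29. Thy1, a small anchored surface protein of T cells, gave 31.8 in granulocytes against 1937 in monocytes (-5.06), and -1.54 on its other probe. Il2rb, a chain of the interleukin 2 and 15 receptors, gave 62.8 in granulocytes against 2005 in monocytes (-4.13). Cd27 (-3.18) and Cd7 (-2.82) were lower in granulocytes too, and Cd96 was at least 4.53-fold lower. Cd8a, a coreceptor chain, gave -1.76, and its probes ranged from -3.77 to -1.74. Ctla4, Cd40lg and Slamf1 were not well above background on either array.

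Of 18 T-lineage transcription factors on the array, 16 were above background, with a median of 0.42 (-0.16 with no scaling). In granulocytes 3 (18.75%) were at least 4-fold higher and 3 (18.75%) at least 4-fold lower, against 8.54% and 10.4% of all genes. That split moved with the processing. With no scaling it was 2 higher and 5 lower, against 3.72% and 19.3% of all genes. With normexp it was 2 higher and 0 lower, against 5.59% and 5.73%. The chromatin organiser gene Satb1 gave 5247 in granulocytes against 794.9 in monocytes (3.59). Ets1 (2.96) and the receptor gene Notch1 (2.11) were also higher in granulocytes. Id3, an inhibitor of E proteins, gave -2.53, Tbx21, the T-box factor of type 1 responses and of NK cells, gave -2.44, and Gata3 was at least 5.31-fold lower. Bcl11b thus lay with Gata3, Id3 and Tbx21 and not with Satb1, Ets1 and Notch1. Lef1 had probes at -1.32 and 1.48, and Tcf12 at -2.05 and 1.55. Foxp3 was not well above background on either array.

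Of the genes that assemble antigen receptors, 4 were matched by name and 3 were above background: Rag1 (1.52), one of the recombinase genes, Ptcra (0.75), the alpha chain of the pre-T-cell receptor, and Dntt (0.06), which adds bases at the joins. Of these, Rag1 alone stayed above 0 with no scaling. Rag2 was not well above background on either array.

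Related genes and partners, among them counterparts in other lineages, were split as well. In granulocytes 1 of 10 (10%) was at least 4-fold higher and 3 (30%) at least 4-fold lower, against 8.54% and 10.4% of all genes. The median was -0.13, or -1.004 with no scaling. With normexp it was 0.016, and 2 were lower by 4-fold or more, against 5.73% of all genes. Cd48, the ligand of Cd2, had the largest measured difference, with 196.3 in granulocytes against 14231 in monocytes (-5.31). Lat2, the relative of Lat in B and myeloid cells, gave 116.9 in granulocytes against 3165 in monocytes (-3.89). The adaptor gene Lax1 was at least 4.09-fold lower in granulocytes. The signalling adaptor gene Hcst was higher in granulocytes (3.21). Syk, the relative of Zap70, gave 15506 in granulocytes against 8998 in monocytes (1.66). The ITAM adaptor gene Tyrobp gave 1.59, and Fcer1g, named after its value was seen because it is the other such adaptor, gave 1.57. Syk and Zap70 thus differed in opposite directions, while Lat and Lat2 were both lower in granulocytes. Bcl11a, the relative of Bcl11b and likewise named after its value was seen, gave -1.03.

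**Figure D4:**
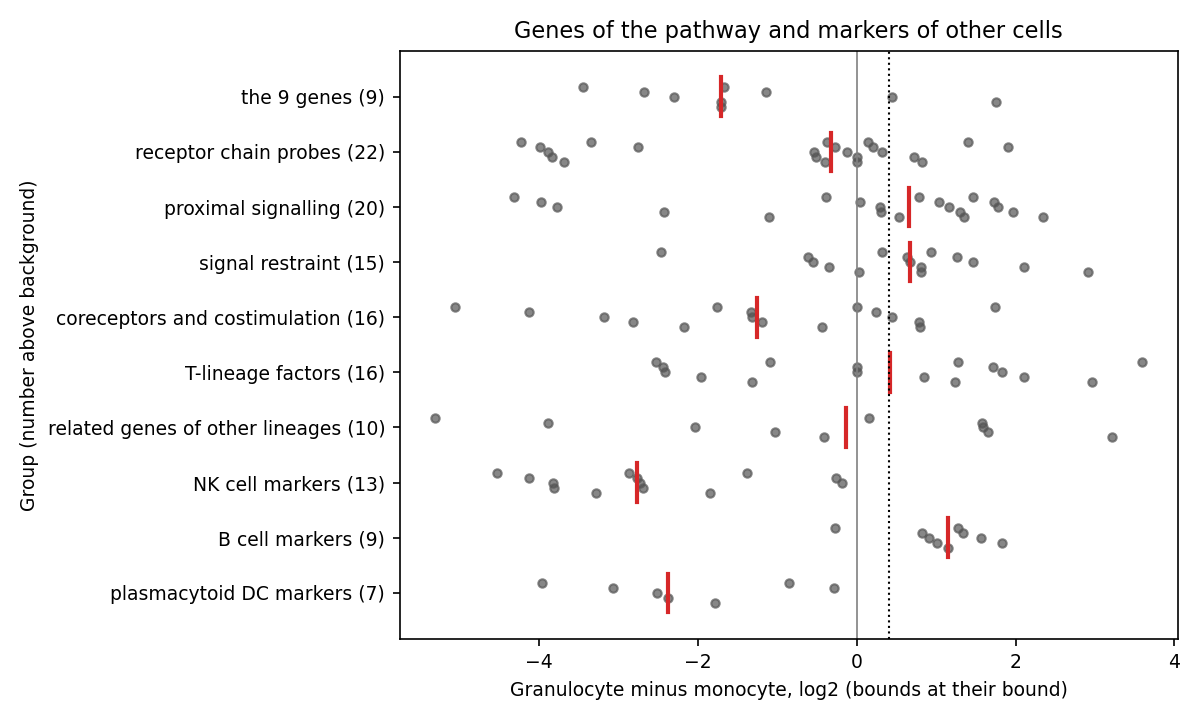
Granulocyte minus monocyte difference (log2) of each gene or probe above background on at least 1 array, by group, with the number in parentheses; genes with a bound stand at the bound. The red bar is the median of a group and the dotted line that of all genes (0.41). The 9 genes have a median of -1.71, NK cell markers -2.77 and B cell markers 1.15.

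Markers of NK cells and plasmacytoid dendritic cells lay on the same side as the 7 lower genes, and most B cell markers did not. Of 14 NK cell markers 13 were above background, with a median of -2.77 and a range from -4.53 to -0.19. In granulocytes 9 (69.2%) were at least 4-fold lower and 0 at least 4-fold higher, against 10.4% and 8.54% of all genes. With normexp 4 were that much lower, against 5.73% of all genes, and the median was -1.31. The summed level of the markers, in units of the 75th percentile, was 2.44 in granulocytes against 27.0 in monocytes. Nkg7 (monocyte level 3.64) and Ccl5 (2.88) made up most of both sums. Klrd1 gave -4.53 and Klrb1c -2.69, while Ncr1, a defining NK cell receptor, was not well above background on either array. The list shares Il2rb with the costimulatory list.

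Of 12 T cell markers, which include Cd3d, Cd3e, Cd3g and Cd5, 11 were above background. In granulocytes 0 were at least 4-fold higher and 2 (18.2%) at least 4-fold lower, against 8.54% and 10.4% of all genes. The markers' median was -0.44, from -5.06 to 1.76, and their summed level was 7.12 in granulocytes against 7.86 in monocytes. Without Cd3d, left out after the values were seen, it was 2.61 in granulocytes against 6.52 in monocytes. With no scaling 5 of the list were at least 4-fold lower, against 19.3% of all genes, and its median was -1.31. With normexp 1 was, against 5.73% of all genes, and the median was 0. Of 7 plasmacytoid dendritic cell markers 4 (57.1%) were at least 4-fold lower and 0 at least 4-fold higher in granulocytes (median -2.38, from -3.96 to -0.28). Siglech was at least 15.6-fold lower. The summed levels of the 7 were 7.74 in granulocytes against 31.9 in monocytes. Bst2 (level 2.15 in granulocytes, 4.53 in monocytes) made up most of both sums. With normexp 2 of the 7 were at least 4-fold lower, against 5.73% of all genes, and the median was -1.55. Of 9 B cell markers 0 reached 4-fold either way, from -0.28 to 1.83 (median 1.15, or 0.28 with no scaling), with summed levels of 6.69 in granulocytes against 5.57 in monocytes. Cd79b was the brightest of them (level 1.76 in granulocytes, 2.04 in monocytes). All these sums rest largely on a few bright genes. The part of these cells in the differences of the 9 genes was not tested.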

How the data were processed

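Total RNA was amplified and labelled with Cy3 per the labels' protocols, and 1 array per cell type was hybridised. Agilent Feature Extraction 10.5.1.1 read the scans, per the file headers. The deposited intensity of a spot is its processed signal on a linear scale, with background and spatial trends taken off but no normalisation between arrays. Its error comes from the software's error model, with a multiplicative term of 10.0% per the file headers, and covers 1 array only. The authors' deposited value table is on a log2 scale and equals log2 of the processed signal plus a constant per array (-0.24 for granulocytes, -0.92 for monocytes; 100.0% of probes within 0.01, both medians 4.80), by a rule not given in the sources used here.

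From 43379 gene spots, outlier-flagged spots (143 and 103 on the granulocyte and monocyte arrays) were left out and spots of a probe averaged, and no spot was saturated. A level is log2 of the processed signal minus its 75th percentile on that array. Where a probe was not well above background on 1 array, its difference is a bound: the bright level minus that of the dim array, for which the lowest level of any probe well above background (-5.16 granulocyte, -6.04 monocyte) stands in where the probe's own is lower. That lowest level is no strict detection limit. On the granulocyte array it is a signal of 9.46, and the Cd247 probe at 9.78 was still not well above background. A fold given as a minimum therefore holds against that level only. Probes were named by RefSeq accession (24496), current symbol (6234) or a single older symbol (2386), with 8058 unnamed. A gene is represented by the probe with most arrays well above background and, among equals, the brightest mean. Probe positions are the files', in build mm8, for which no exon annotation was used. Promoters are RefSeq's, GRCm38.p6. Repeated spots had a median SD of 0.11 for granulocytes and 0.09 for monocytes (log2, 245 probes).

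With 1 array per group no test was made. Genes were counted at 4-fold, and the steps were checked on simulated data. The genes and lists were chosen with earlier results of these data known. Named from each list are up to 6 genes with the largest differences and those whose probes go opposite ways by 2-fold, and from each marker list up to 3 genes and those at background on both arrays. A few genes that this rule selects are left unnamed, though counts and medians include them. Alternatives were 4 other scalings (none, the median of probes measured on both, quantile, 9 spike-in controls), normexp with limma 3.58.1 and an offset of 50, the authors' value table, outlier spots kept, the mean of a gene's probes, only genes above background on both arrays, and 2-fold and 8-fold rules.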

Additional observations from a re-analysis of the deposited data

How the results depend on the processing

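Of 84 values of the 12 member probes under 7 alternatives, 51 were counted as within the error of the spots and 33 as moved. Of those moved 2 changed sign, both of Cd3e (-0.43 with no scaling, -0.07 with spike-in scaling). The probes of Cd247 and Bcl11b gave bounds, for which no error of the difference was given. For them this split therefore rests on no error of their own. No member reached 4-fold on the granulocyte side under any alternative at that size, and 1 did at 2-fold. The 3 members at least 4-fold lower in granulocytes became 7 with no scaling, 6 with spike-in scaling, 2 with quantile normalisation and 0 with normexp. They became 1 with the mean of probes, 1 among genes above background on both arrays, 7 at 2-fold and 1 at 8-fold. Over all 15609 genes 1622 were lower, which became, in the same order, 3011, 2374, 1861, 895, 1452, 1377 (of 14182), 3256 and 666. The median of the 9 members, -1.71, became -2.58, -2.22 and -0.60 with no scaling, spike-in scaling and normexp. Under quantile normalisation another Cd247 probe represents the gene (-0.82), since the mean levels of the first and second probe are -4.82 and -4.84.

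Over all genes, the 1333 higher in granulocytes by 4-fold became 581 with no scaling, 786 with spike-in scaling, 872 with normexp, 4536 at 2-fold and 522 at 8-fold. The 1622 lower became 3011 with no scaling, 2374 with spike-in scaling, 895 with normexp, 3256 at 2-fold and 666 at 8-fold. Of the pathway genes, 7 higher became 4 with no scaling, quantile normalisation or spike-in scaling, 26 at 2-fold and 2 at 8-fold. The 16 lower became 22 with no scaling, 11 among genes above background on both arrays, 6 with normexp, 25 at 2-fold and 8 at 8-fold. Settings not listed moved these counts less. The median of the pathway genes, 0.29, became -0.46 with no scaling, 0.062 with quantile normalisation, -0.10 with spike-in scaling and 0.63 among genes above background on both arrays. That of all genes, 0.41, became -0.42, 0.18, -0.068 and 0.47 in the same order. Normexp adds 50 to intensities, and 6 of the 9 genes have a granulocyte signal below that, which limits what dim probes can show. No paired analysis was possible because each cell type has 1 array and no result comes from a test.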

Other observations

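Several genes of the lists had probes that differed widely, and they are given here after their values were seen. Cd8b1, a coreceptor chain, gave 0.45 on the probe that represents it and -4.13 on its other probe. Sla2, an adaptor that restrains receptor signals, gave -0.35 on its representing probe and 2.16 on its other probe, and Rasgrp1, an activator of Ras, gave 0.54 and -1.59. Ikzf3, a zinc finger factor of lymphocytes, ranged from -0.64 to 1.83 over its probes. For these genes the direction depends on the probe, and the cause was not tested.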
